A study of Mus musculus with 15 samples.

Results

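The 33 genes described here handle amino acids, carry single carbon units on folate, or belong to the integrated stress response, and they were chosen by name. They comprise 8 amino acid transporters, 5 enzymes of asparagine, glutamate and proline metabolism, 3 enzymes of serine synthesis, 5 enzymes of folate-bound carbon transfer, 6 stress transcription factors and effectors, and 6 tRNA synthetases. Of the 33, 32 had a probe set with their symbol on the array and 31 passed the filter on low signal, among 18193 genes on the array and 11902 that passed. Pycr1, which makes proline, had no probe set listed under its symbol, and Slc7a11, the cystine transporter, stayed below the filter.

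RNA was measured on 15 mouse arrays. Of these, 9 came from peripheral T cell lymphomas (PTCL, named mPTCL 1 to 9), 3 from T cells activated in culture and 3 from resting T cells. The lymphomas are labelled p53KO on a C57BL/6 background. They grew in CD3KO mice, which lack a signalling component of the T cell receptor, after these were given T cells without p53, and their cells were sorted from liver. Activated and resting cells came from 5-week-old p53 KO mice on the same background, so that every group lacked p53, a transcription factor that halts or kills damaged cells. The normal cells were sorted too, from liver or spleen, but no sample states which organ, and the sources used here do not give the activating agent. A protocol of the normal samples describes injections of saline or killed pneumococci, without saying whether these donors received them. Whether replicates stem from different animals is not labelled, and p-values thus cover only sample-to-sample spread, which may be technical. An amplification kit is named for the normal cells alone and a software version for the lymphomas alone, so any batch of that kind and the contrast of lymphoma with normal cells cannot be told apart.

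As background, dividing cells import amino acids through paired membrane transporters and make serine from a glycolytic intermediate through the enzymes Phgdh, Psat1 and Psph. Serine hydroxymethyltransferases then pass a carbon of serine to folate, which feeds the making of purines and thymidylate. When amino acids run short or the endoplasmic reticulum is overloaded, kinases phosphorylate the initiation factor eIF2, most translation slows, and translation of the transcription factor Atf4 goes up. Atf4 and its partners bind composite sites in the genes for Asns, Trib3, Chac1 and several transporters and tRNA synthetases. T cells need these supplies when they leave quiescence.

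Such composite sites have the core TGATGNAA, and the promoters of the 2 members with the largest increases in activated cells are shown because both hold it. The sequences are from RefSeq (GRCm38.p6), read 5′ to 3′ on the strand of the gene, with the match to the core or to its reverse complement in capitals. The Asns stretch covers chr6:7693210-7693309 on the minus strand, which is the 100 bases before the transcription start, and its match begins 23 bases before the start. The Trib3 stretch covers chr2:152344028-152344057 on the minus strand, with the match starting at base 15 of the transcript. Atf3 and Chac1, which were not called in any comparison, are given beside them at chr1:191183425-191183454 (minus strand) and chr2:119351038-119351067 (plus strand).
Asns: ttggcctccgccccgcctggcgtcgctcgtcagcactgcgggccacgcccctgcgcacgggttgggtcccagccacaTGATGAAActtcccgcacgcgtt
Trib3: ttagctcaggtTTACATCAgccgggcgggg
Atf3: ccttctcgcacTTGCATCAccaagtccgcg
Chac1: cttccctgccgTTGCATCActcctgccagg
Both strands were searched from 250 bases before to 50 bases after each start. Of the 27 members with a window, 9 held a match (33.3%), among them Slc7a11, Gars, Aars and Got1, against 4.51% of 27025 genes and 3.97% of 32851 windows. The members were chosen by name and include genes known for such sites, so the higher share follows in part from that choice. A match is a description of letters and not of binding.

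Values are log2 of the array signal, with signals under 32 set to 32 (5 on the log2 scale), so a difference from arrays at that floor is a lower bound. Median signal ran from 68.0 to 116.2 on lymphoma, 110.5 to 118.3 on activated and 91.7 to 99.2 on resting arrays. Arrays of 1 group correlated at 0.761 to 0.924 for lymphomas, 0.970 to 0.974 for activated and 0.968 to 0.976 for resting cells, across genes. The 3′ to 5′ actin ratio, a sign of RNA quality, was 1.47 to 2.65, 1.49 to 1.54 and 1.26 to 1.50 in the same groups. Cell types were checked with marker lists. The 7 measured T cell markers summed to 6746 to 44940 signal units on lymphoma, 56043 to 60083 on activated and 64524 to 84118 on resting arrays, with Cd3d, Cd3g and Cd247 lower in lymphomas than in resting cells. In bulk samples, fewer cells of a type and less RNA per cell cannot be told apart. The 11 division markers averaged 9.39 to 12.20 in lymphomas, 11.38 to 11.51 in activated and 7.42 to 7.85 in resting cells, and all 11 were higher in lymphomas and in activated cells than in resting cells.

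Markers of other cells also moved. The 10 measured neutrophil markers summed to 460 to 114867 on lymphoma, 533 to 699 on activated and 487 to 650 on resting arrays, and Lcn2 lay at the floor in all normal arrays. In 6 lymphomas their mean exceeded that of every normal array by over 2 log2 units (mPTCL 1, 2, 4, 5, 8 and 9). The 11 measured B cell markers summed to 1444 to 74685 on lymphoma, 8742 to 23030 on activated and 17475 to 18661 on resting arrays, and their mean stood more than 1 log2 unit above the normal arrays in mPTCL 1 and 5. Macrophage and Kupffer cell markers summed to 515 to 42330 on lymphoma, 604 to 701 on activated and 2254 to 4375 on resting arrays, with 6 of 11 tested lower in activated than in resting cells and C1qa and C1qc at the floor in all activated arrays. Stromal and endothelial markers summed to 473 to 3054 on lymphoma, 4092 to 4614 on activated and 2472 to 3104 on resting arrays, and activated cells exceeded resting cells in 5 of 9 tested. Erythroid markers summed to 140 to 6352, 219 to 345 and 248 to 583 on lymphoma, activated and resting arrays, and hepatocyte markers to 232 to 3416, 478 to 560 and 294 to 517. The part of these cells in the results was not tested, beyond the fits without the lymphomas named here.

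**Figure D1:**
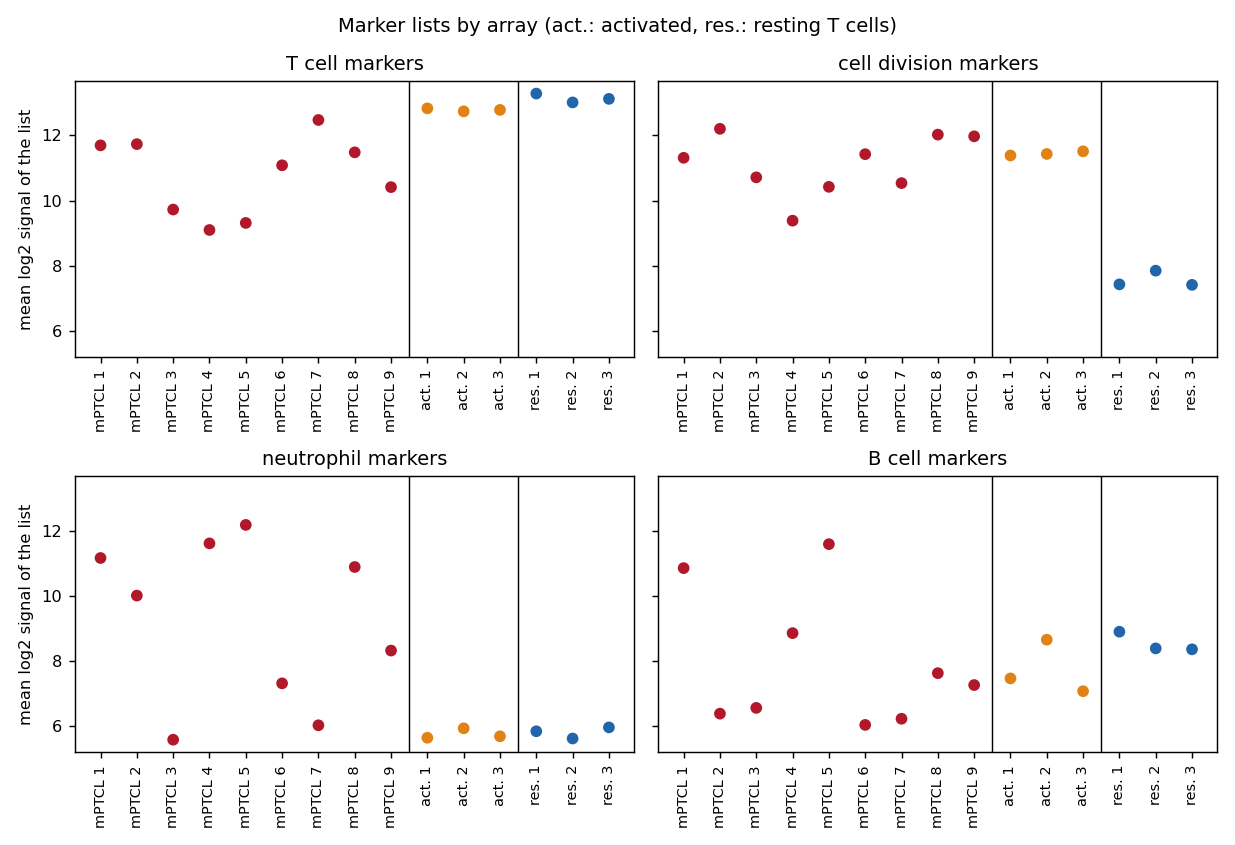
Mean log2 signal of 4 marker lists on each of the 15 arrays, lymphomas in red, activated cells in orange and resting cells in blue. Neutrophil markers lie far above the normal arrays in 6 lymphomas, and division markers are low in resting cells alone.

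Activated T cells differed from resting ones in 3 members. Asns and Trib3 were higher and Mthfd1, a cytosolic folate enzyme, was lower, by limma with a Benjamini-Hochberg adjusted p under 0.05 over all tested genes and a change of at least 2-fold. Thus 2 of 31 members were called higher and 1 lower, against 8.45% and 4.23% of all tested genes. The median member difference was -0.01, and that of all tested genes 0.02. By the adjusted p alone, without the fold, 7 members were higher and 7 lower, where 15.4% and 15.5% of all genes were. Their groups did not overlap for 9 members upwards and 9 downwards, against a background of 23.3% in each direction. Both sets of shares lie near or moderately above the background, and activation shifted few of these genes by 2-fold.

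In lymphomas, 3 members were called higher than in resting cells, the transporter Slc7a5 and the serine enzymes Phgdh and Psat1. None was called lower by limma, while 9 members in either direction had an unadjusted p under 0.05. Of all tested genes, 7.03% were called higher and 6.84% lower, and no share of them at an unadjusted p is given for that count of 9. All 4 members whose groups did not overlap were higher in lymphomas, Slc7a5, Phgdh, Got2 and Aars, where the background was 8.36% upwards and 11.0% downwards. The median member difference was 0.39, against -0.02 for all tested genes, and 26 of 31 differences were above 0. By the adjusted p alone 5 members were higher and 0 lower, where 8.90% and 9.07% of all genes were. All 3 calls ended when any 1 resting array was left out, as given for each gene below.

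Against activated cells, 7 members were called higher in lymphomas and 1 lower, where the background was 7.04% and 8.28%. Those higher were Slc7a5, Slc7a1, Phgdh, Shmt1, Shmt2, Mthfd1 and Atf4, and Trib3 was lower. Groups did not overlap for 8 members upwards and 1 downwards, against 9.78% and 12.4% of all genes. By the adjusted p alone 10 were higher and 1 lower, where 10.1% and 10.5% of all genes were. The median member difference was 0.45, against -0.08 for all tested genes. The comparisons share arrays, so they are given side by side and not as support for each other.

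**Figure D2:**
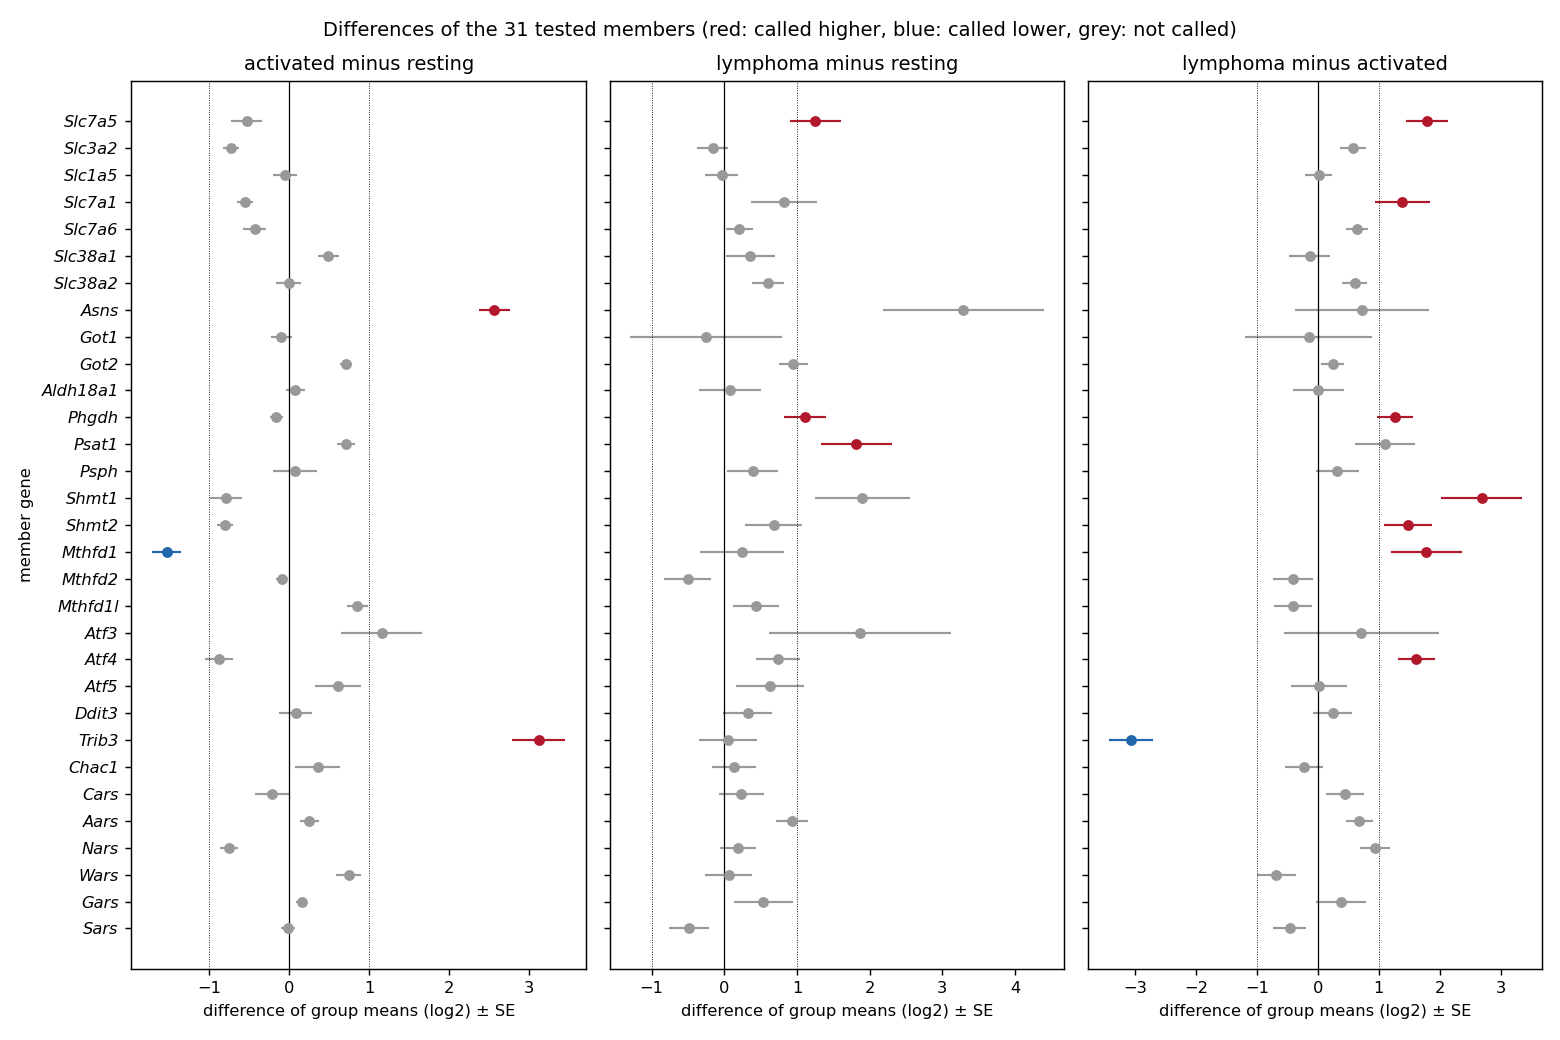
Difference of group means (log2) with its SE for the 31 tested members in the 3 comparisons, red for members called higher, blue for members called lower and grey for the rest, with dotted lines at a 2-fold change. Asns and Trib3 stand apart to the right in activated against resting cells, and Trib3 stands alone to the left in lymphomas against activated cells.

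Among the transporters, Slc7a5 was higher in lymphomas than in both normal states. It is the light chain of the large neutral amino acid transporter, which brings in leucine, and pairs with the heavy chain Slc3a2. The lowest, median and highest lymphoma had log2 signals of 9.12, 9.97 and 11.17, the activated cells 8.25, 8.09 and 8.22, and the resting cells 8.98, 8.72 and 8.47. Every lymphoma lay above every normal array, with mPTCL 6 highest and mPTCL 9 lowest. The difference was 1.79 ± 0.34 from activated cells (SE, n = 9 and 3, limma adjusted p = 0.00388), and this call held in all 27 alternatives. From resting cells it was 1.25 ± 0.35 (n = 9 and 3, limma adjusted p = 0.0253), and the adjusted p was 0.068, 0.0965 and 0.124 without resting array 1, 2 or 3. It was also lost without the 6 lymphomas high in neutrophil markers, with a larger difference of 1.52 and an adjusted p of 0.0665. In activated against resting cells Slc7a5 differed by -0.53 ± 0.19 and was not called (limma adjusted p = 0.0773).

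Slc3a2 was not called in any comparison. It ran from 11.59 to 12.80 in lymphomas, from 11.62 to 11.89 in activated and from 12.41 to 12.57 in resting cells. Its difference of -0.73 ± 0.10 in activated against resting cells passed the adjusted p (limma, 0.00265) but lay under 2-fold. Slc7a1, the main importer of arginine and lysine, had log2 signals of 10.06, 12.24 and 12.60 in the lowest, median and highest lymphoma, 10.43, 10.34 and 10.35 in activated cells and 11.07, 10.93 and 10.79 in resting cells. mPTCL 4 lay below all activated arrays, and the other lymphomas lay above them. The difference from activated cells was 1.38 ± 0.45 (SE, n = 9 and 3, limma adjusted p = 0.0463). This call ended in 12 of 27 alternatives, with adjusted p up to 0.145, among them those without any 1 activated array and those without mPTCL 1, 2, 6, 7, 8 or 9 (0.06 to 0.0694). From resting cells Slc7a1 differed by 0.83 ± 0.45 (limma adjusted p = 0.223), and by 1.04 without mPTCL 4 (adjusted p = 0.0435, within a range of 0.0435 to 0.426 over the alternatives).

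The other tested transporters stayed under 2-fold in all comparisons on their main probe sets. These were Slc1a5, a glutamine carrier, Slc7a6, another partner of Slc3a2, and the sodium-coupled carriers Slc38a1 and Slc38a2. On its main probe set Slc7a6 had the narrowest spread of all members in lymphomas, at 9.52 to 10.09, above the activated range of 9.09 to 9.28. Its second probe set ran more widely in lymphomas, from 8.30 to 10.13, where activated cells averaged 8.93. There lymphomas differed by 0.56 from activated and by -0.34 from resting cells. Slc38a2 differed by 0.60 in lymphomas from each normal state and was not called, while its other 2 probe sets differed by 1.44 and 1.00 from activated and by 0.91 and 0.83 from resting cells. The second Slc1a5 probe set stood -1.11 in lymphomas from activated cells. Slc7a11 ran from 5.00 to 6.77 in lymphomas, 6.02 to 6.63 in activated and 5.18 to 5.76 in resting cells, all near the floor.

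Asparagine synthetase, Asns, makes asparagine from aspartate with glutamine as the nitrogen donor. Its log2 signal was 5.80, 10.71 and 12.78 in the lowest, median and highest lymphoma, 9.58, 9.58 and 9.82 in activated cells and 7.28, 6.81 and 7.19 in resting cells. All activated arrays lay above all resting arrays. Among lymphomas, mPTCL 3 lay below the resting cells at 5.80 and mPTCL 4 between the normal states at 8.32, and the others lay above both. The difference of activated from resting cells was 2.57 ± 0.20 (SE, n = 3 each, limma adjusted p = 4.19e-04). Fitting all 15 arrays at once, so that the wide spread of the lymphomas enters, gave an adjusted p of 0.339, and the call held in the other 18 alternatives.

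The lymphomas' Asns difference from resting cells was larger, at 3.29 ± 1.10 (SE, n = 9 and 3), but was not called (limma adjusted p = 0.0549). Without mPTCL 3 it was 3.86 with an adjusted p of 0.0029, and without mPTCL 4 it was 3.54 with 0.0388. It passed in 7 of 27 alternatives, over which the adjusted p ran from 0.0029 to 0.318. A second Asns probe set was at the floor in mPTCL 3, where the main one was at 5.80, and reached 12.56 in the highest lymphoma. From activated cells the lymphomas differed by 0.72 ± 1.10 (limma adjusted p = 0.674).

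The other enzymes of the group were not called. Got1, the cytosolic aspartate aminotransferase, was at the floor of 5.00 in mPTCL 3 and at 10.06 to 11.43 in the other lymphomas, against 10.10 to 10.50 in activated and 10.36 to 10.50 in resting cells. Its 1 probe set gives no second reading. Got2, the mitochondrial form, ran from 12.93 to 13.98 in lymphomas, 13.09 to 13.18 in activated and 12.42 to 12.46 in resting cells. Its differences of 0.71 ± 0.07 in activated and 0.95 ± 0.20 in lymphomas from resting cells passed the adjusted p (limma, 0.00107 and 0.00598) but not the 2-fold limit, and its second probe set was -0.12 in the lymphoma contrast. Aldh18a1, which starts proline synthesis, ran from 9.84 to 12.06 in lymphomas around 11.10 to 11.40 in activated and 11.03 to 11.31 in resting cells. Its 5 probe sets, the main one first, differed in lymphomas by 0.08, -0.40, -1.03, 0.13 and -0.86 from resting cells. From activated cells they differed by 0.01, -0.34, -0.87, -0.25 and -0.42.

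Of the 3 serine enzymes, Phgdh and Psat1 were higher in lymphomas. Phgdh catalyses the step that commits carbon to serine. It had log2 signals of 13.17, 13.91 and 14.77 in the lowest, median and highest lymphoma, 12.56, 12.68 and 12.55 in activated cells and 12.86, 12.73 and 12.67 in resting cells. Every lymphoma lay above every normal array, with mPTCL 8 highest. The difference was 1.26 ± 0.29 from activated cells (SE, n = 9 and 3, limma adjusted p = 0.00951), lost without activated array 3 (0.0506). From resting cells it was 1.10 ± 0.29 (limma adjusted p = 0.0202), with an adjusted p of 0.0689, 0.0846 and 0.0911 without resting array 1, 2 or 3 and a difference under 2-fold, 0.99, without mPTCL 8. The call against resting cells was also lost with the mean of all probe sets (0.91, adjusted p = 0.0997) and after centring arrays on their median (1.18, adjusted p = 0.0619). All 4 Phgdh probe sets agreed in direction in both lymphoma contrasts, and all 4 are of the class that may also bind other transcripts. Activated and resting cells differed by -0.16 ± 0.09 (limma adjusted p = 0.202).

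Psat1, the aminotransferase of the next step, had log2 signals of 10.59, 12.92 and 13.42 in the lowest, median and highest lymphoma, 11.34, 11.67 and 11.43 in activated cells and 10.79, 10.66 and 10.85 in resting cells. mPTCL 4 lay just below the resting arrays, and the other lymphomas lay above every normal array. The difference from resting cells was 1.82 ± 0.49 (SE, n = 9 and 3, limma adjusted p = 0.0229). The adjusted p was 0.0858, 0.0976 and 0.0826 without resting array 1, 2 or 3, and 0.172 with a difference of 1.01 on the second probe set. This call was also lost with the mean of all probe sets (1.41, limma adjusted p = 0.07), a setting that called Slc7a5 and Asns against resting cells. From activated cells the lymphomas differed by 1.10 ± 0.49 (limma adjusted p = 0.127), and without mPTCL 4 by 1.35 (adjusted p = 0.011, within 0.0104 to 0.299 over the alternatives). Activated cells lay above resting cells by 0.71 ± 0.11, under 2-fold (limma adjusted p = 0.00485). Psph, the phosphatase of the last step, ran from 9.70 to 11.52 in lymphomas, 9.67 to 10.46 in activated and 9.77 to 10.53 in resting cells and was not called.

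**Figure D3:**
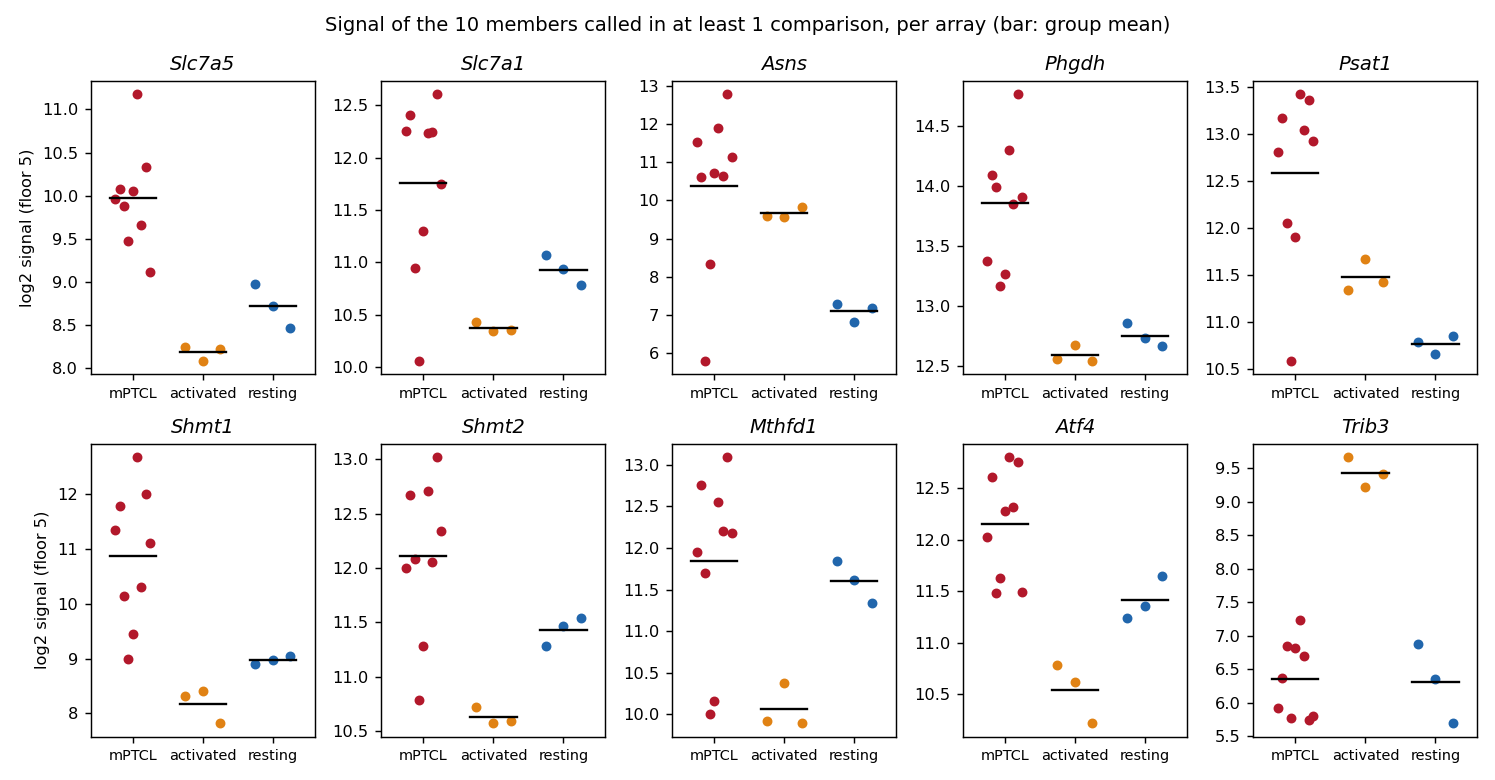
Log2 signal per array of the 10 members called in at least 1 comparison, in lymphomas, activated and resting cells, with a bar at each group mean. All lymphomas lie above all normal arrays for Slc7a5 and Phgdh, and Trib3 is high in activated cells alone.

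Of the 5 folate enzymes, 3 were called against activated cells. The cytosolic enzymes Shmt1 and Mthfd1, together with the mitochondrial Shmt2, were higher in lymphomas than in activated cells, while the mitochondrial Mthfd2 and Mthfd1l were not called. Shmt1 and Shmt2 move a carbon of serine to folate. Shmt1 had log2 signals of 8.99, 11.10 and 12.67 in the lowest, median and highest lymphoma, 8.32, 8.40 and 7.82 in activated cells and 8.89, 8.97 and 9.05 in resting cells. All lymphomas lay above the activated arrays, and mPTCL 4 lay within the resting range. The difference was 2.69 ± 0.66 from activated cells (SE, n = 9 and 3, limma adjusted p = 0.0133) and 1.90 ± 0.65 from resting cells (limma adjusted p = 0.0603, not called). Without activated array 1, 2 or 3 the adjusted p against activated cells was 0.0548, 0.0518 and 0.0726, and without mPTCL 4 or 5 the difference from resting cells passed at 0.0225 and 0.0355 (range over the alternatives 0.00373 to 0.175). In activated against resting cells the 4 Shmt1 probe sets disagreed in sign, from -1.62 to 0.85. In lymphomas against activated cells they agreed in sign, at 2.69, 0.92, 1.45 and 2.32, the main one first and largest.

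For Shmt2, the lowest, median and highest lymphoma had log2 signals of 10.78, 12.09 and 13.02, activated cells 10.72, 10.57 and 10.59, and resting cells 11.28, 11.47 and 11.54. All lymphomas exceeded the activated arrays, and mPTCL 4 lay below and mPTCL 5 within the resting range. The difference from activated cells was 1.48 ± 0.39 (SE, n = 9 and 3, limma adjusted p = 0.0184), with 0.0669, 0.0802 and 0.0768 without activated array 1, 2 or 3. With the mean of all probe sets it was 1.19 and the call was lost (adjusted p = 0.062). From resting cells it was 0.68 ± 0.39 (limma adjusted p = 0.243). Activated cells stood 0.80 ± 0.10 below resting cells, which passed the adjusted p (limma, 0.00209) and not the 2-fold limit.

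Mthfd1, which interconverts folate-bound carbon units in the cytosol, was the member lower in activated than in resting cells past both the adjusted p and the 2-fold limit. Its log2 signal was 10.00, 12.18 and 13.09 in the lowest, median and highest lymphoma, 9.92, 10.38 and 9.89 in activated cells and 11.85, 11.62 and 11.34 in resting cells. All activated arrays lay below all resting arrays, and mPTCL 4 and 5 lay within the activated range. The difference of activated from resting cells was -1.53 ± 0.18 (SE, n = 3 each, limma adjusted p = 0.00187), and it was lost with all 15 arrays in 1 fit (0.264). Lymphomas stood 1.78 ± 0.58 above activated cells (SE, n = 9 and 3, limma adjusted p = 0.0454) and 0.24 ± 0.58 from resting cells (limma adjusted p = 0.802). The call against activated cells ended in 13 of 27 alternatives, with adjusted p of 0.108 to 0.154 without any 1 activated array and 0.0534 to 0.0683 without mPTCL 1, 2, 3, 6, 7, 8 or 9.

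Mthfd2 ran from 9.72 to 11.37 in lymphomas, 11.02 to 11.08 in activated and 11.04 to 11.19 in resting cells. Its differences were -0.41 ± 0.33 from activated and -0.51 ± 0.33 from resting cells on the main probe set, and 0.24 and 0.09 on the second. Mthfd1l, which releases formate from mitochondria, ran from 10.23 to 11.91 in lymphomas, 11.38 to 11.69 in activated and 10.47 to 10.86 in resting cells. Activated cells lay 0.85 ± 0.13 above resting cells (limma adjusted p = 0.00459, under 2-fold), opposite in sign to Mthfd1 and Shmt2.

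Against activated cells, lymphomas had less Trib3 and more Atf4 signal. Trib3, a pseudokinase that Atf4 induces and that can dampen its activity, was high in activated cells alone. Its log2 signal was 5.75, 6.38 and 7.24 in the lowest, median and highest lymphoma, 9.67, 9.22 and 9.41 in activated cells and 6.88, 6.36 and 5.69 in resting cells. The activated arrays overlapped no other array, and the lymphomas lay around the resting range. The difference of activated from resting cells was 3.12 ± 0.33 (SE, n = 3 each, limma adjusted p = 0.00124), 2.82 to 3.74 over 19 alternatives that all kept the call. Lymphomas stood -3.07 ± 0.37 from activated cells (SE, n = 9 and 3, limma adjusted p = 2.92e-04), called in all 27 alternatives, and 0.05 ± 0.40 from resting cells (limma adjusted p = 0.945). That last difference ran from -0.26 to 0.69 over the alternatives, and the second probe set gave 1.19, with means of 6.55 in lymphomas and 5.36 in resting cells.

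Atf4 itself had log2 signals of 11.48, 12.28 and 12.80 in the lowest, median and highest lymphoma, 10.78, 10.62 and 10.22 in activated cells and 11.24, 11.36 and 11.65 in resting cells. All activated arrays lay lowest, and mPTCL 3, 4 and 9 lay within the resting range. Lymphomas stood 1.62 ± 0.31 above activated cells (SE, n = 9 and 3, limma adjusted p = 0.00384), with 1.19 to 1.96 over 27 alternatives that all kept the call. From resting cells they differed by 0.74 ± 0.30 (limma adjusted p = 0.107), and by 1.62 on the second probe set. Activated cells lay 0.88 ± 0.18 below resting cells, past the adjusted p (limma, 0.0117) and under 2-fold, and the second probe set gave -0.29. Array signal measures the Atf4 transcript, whereas the protein is set largely by translation. Centring arrays on their median, which moves the median of all genes to -0.26 in this contrast, takes Atf4, Shmt1, Shmt2, Slc3a2 and Nars past 2-fold too, for 6 members lower.

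The other stress factors were not called. Atf3, an early stress-induced factor, was the most variable member in lymphomas, with an SD of 2.36 that exceeded the SD of 98.3% of tested genes. It was 11.15 in mPTCL 6, 10.47 in mPTCL 4 and 9.94 in mPTCL 2, between 8.26 and 8.90 in mPTCL 1, 5 and 8, and between 5.00 and 5.36 in mPTCL 3, 7 and 9. Activated cells were at 7.36, 8.36 and 6.51 and resting cells at 6.77, 6.20 and 5.79. Neutrophil marker means beside these were 7.32 in mPTCL 6, 11.61 in mPTCL 4 and 10.01 in mPTCL 2, then 11.16, 12.17 and 10.88 in mPTCL 1, 5 and 8, and 5.59, 6.03 and 8.32 in mPTCL 3, 7 and 9. The part of neutrophils in the Atf3 values was not tested. Ddit3, a pro-apoptotic partner of C/EBP factors, ran from 9.28 to 11.18 in lymphomas, 9.49 to 9.73 in activated and 9.21 to 9.95 in resting cells. Atf5 and Chac1, a glutathione-degrading enzyme, ran from 6.60 to 8.93 and from 6.25 to 7.39 in lymphomas, and overlapped the normal cells.

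None of the 6 tRNA synthetases was called at the main settings. Nars, for asparagine, came closest, at 0.94 ± 0.25 in lymphomas against activated cells (limma adjusted p = 0.02), with 12.21 to 13.42 in lymphomas, 11.64 to 11.99 in activated and 12.54 to 12.67 in resting cells. The second Nars probe set differed by 0.50 from activated cells. Aars, for alanine, differed by 0.93 ± 0.23 in lymphomas from resting cells (limma adjusted p = 0.0138), with every lymphoma (10.43 to 11.51) above every activated (10.17 to 10.35) and resting (9.85 to 10.17) array. Its second probe set differed by 0.46 from resting and by -0.09 from activated cells. Both depended on the setting. Aars was called against resting cells after median centring and without resting array 2, and against activated cells after median centring. Nars was called against activated cells after median centring, without mPTCL 4, without mPTCL 5 and without the 6 lymphomas high in neutrophil markers. Wars, for tryptophan, was 0.75 ± 0.16 in activated against resting cells (limma adjusted p = 0.0145), in the same direction on all 4 probe sets. Cars, Gars and Sars had differences between -0.48 and 0.54 in all comparisons.

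The lymphomas differed widely among themselves. mPTCL 6 was the highest of the 9 for 15 of the 31 members and mPTCL 8 for 12, and mPTCL 4 was the lowest for 12. No such count is given for all tested genes, so this ranking is not shown to be particular to the members. Median array signal was 77.5 in mPTCL 6, 68.0 in mPTCL 8 and 116.2 in mPTCL 4. The part of array scale in the ranking was not tested. Counting members above all 6 normal arrays gave 22 in mPTCL 6 and in mPTCL 8, 21 in mPTCL 1, 19 in mPTCL 2 and 7, 15 in mPTCL 5, 14 in mPTCL 9, 10 in mPTCL 3 and 6 in mPTCL 4. Over all tested genes the share above was 26.7% to 30.2% per lymphoma. mPTCL 4 was also lowest in division markers, at 9.39, and in T cell markers, at 9.10, and its neutrophil marker mean of 11.61 was exceeded by that of mPTCL 5 alone. Its macrophage marker mean of 10.01 and stromal marker mean of 7.59 were the highest of the 9. The 3′ to 5′ actin ratio was 2.65 in mPTCL 5, 2.41 in mPTCL 4 and 2.23 in mPTCL 3, against 1.47 to 1.91 in the other 6. These 3 lymphomas hold the low values of Asns and Got1 (mPTCL 3) and of Mthfd1 (mPTCL 4 and 5) described above. mPTCL 6 had division markers at 11.42 and mPTCL 8 at 12.02. The part of these markers and of RNA quality in the results was not tested, beyond the fits without single lymphomas. The median SD of the members was 0.56 in lymphomas, 0.16 in activated and 0.19 in resting cells, against 0.60, 0.19 and 0.23 for all tested genes. After Atf3, the widest members were Asns (SD 2.10) and Got1 (1.99), each with its lowest value in mPTCL 3, then Shmt1 (1.23) and Mthfd1 (1.08).

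**Figure D4:**
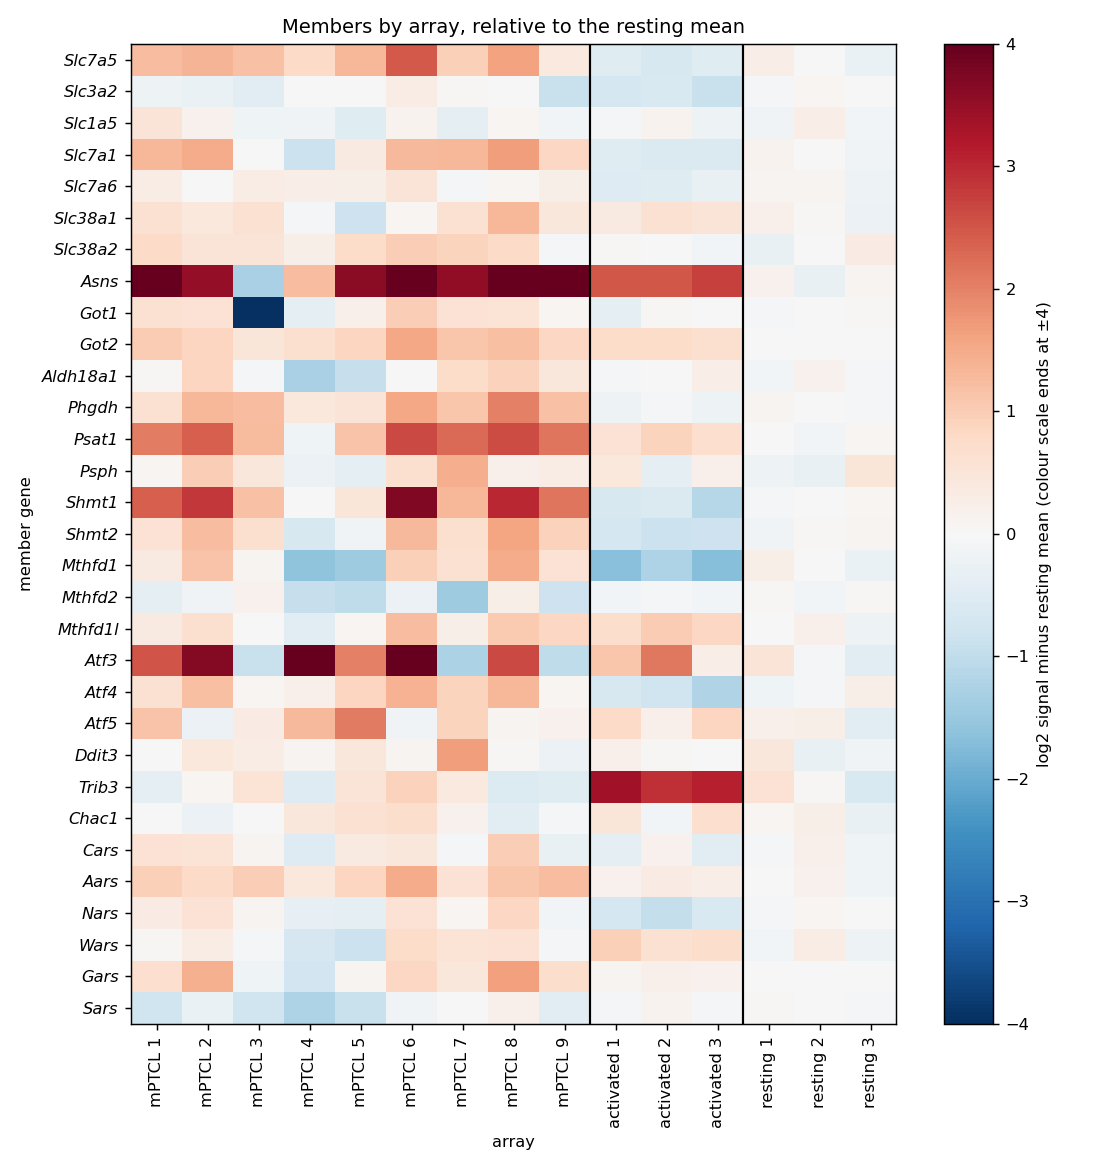
Log2 signal of the 31 tested members on each array minus the mean of the resting arrays, in the order of their roles, with lymphomas, activated and resting cells from left to right. Asns is dark red in all lymphomas but mPTCL 3 and 4, and mPTCL 4 and 5 share low Mthfd1 with the activated cells.

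Partners in a pathway were compared across the 9 lymphomas in 11 pairs, with 2-sided exact permutation tests adjusted over the 11. The pairs were chosen with earlier results of these data known, and the adjustment over 11 does not cover that choice. Shmt1 and Mthfd1 went together, with Pearson's r = 0.885 (exact permutation p = 8.65e-04, adjusted 0.00952) and Spearman's rho = 0.883 (p = 0.00308, adjusted 0.0248). Without mPTCL 4 and 5, which lay farthest from the median, r was 0.727 over 7 lymphomas and no longer passed (exact permutation p = 0.0667, adjusted 0.438). With single lymphomas left out r was 0.823 to 0.927, lowest without mPTCL 4. Phgdh and Psat1 had r = 0.742 (exact permutation p = 0.0205, adjusted 0.113) and rho = 0.867 (p = 0.00451, adjusted 0.0248), and r was 0.608 without mPTCL 4 and 8. The other 9 pairs did not pass the adjustment by either measure. Slc7a5 and its heavy chain Slc3a2 had r = 0.708 (exact permutation p = 0.0444, adjusted 0.163; rho = 0.533, p = 0.148), and r was -0.137 without mPTCL 6 and 9. Asns and Psat1 had r = 0.662 (exact permutation p = 0.06, adjusted 0.165; rho = 0.617, p = 0.0857), and Asns and Trib3 r = -0.194 (exact permutation p = 0.631; rho = -0.2, p = 0.613). The lymphomas of a pair share their array, with its quality and its mix of cells. Without the lymphomas high in neutrophil markers 3 remain, too few for a correlation.

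**Figure D5:**
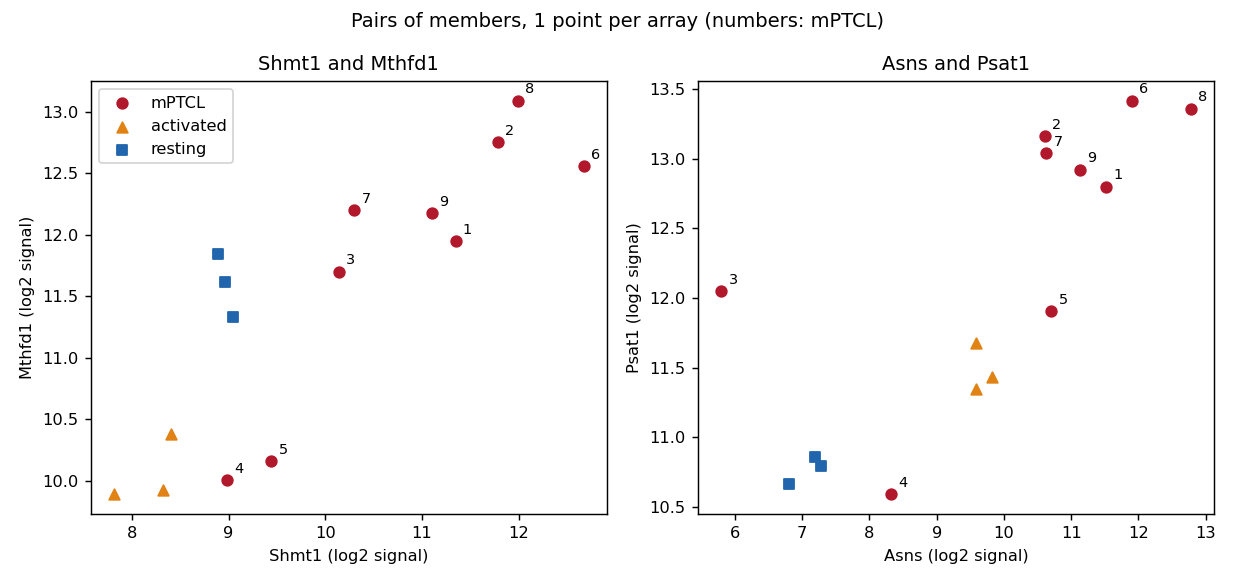
Log2 signals of Mthfd1 against Shmt1 and of Psat1 against Asns, 1 point per array, with lymphomas numbered. mPTCL 4 and 5 lie at the low end of Shmt1 and Mthfd1 beside the activated cells, and mPTCL 3 departs from the other lymphomas in Asns.

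Other genes of the same pathways, taken from lists of their own, are given with the shares of all tested genes beside them. Unless stated, these shares are for the adjusted p with the 2-fold limit. For the counts at an unadjusted p under 0.05 no share of all tested genes is given, so those counts have no background. The 18 further integrated stress genes had 7 members higher and 0 lower in activated than in resting cells by limma (10 with an unadjusted p under 0.05), where 8.45% and 4.23% of all tested genes were. Those with the largest differences were the lipoprotein receptor Vldlr (3.61 ± 0.35), the translation repressor Eif4ebp1 (3.15 ± 0.11), the transcription factor Jdp2 (2.88 ± 0.37) and the secreted glycoprotein Stc2 (2.86 ± 0.43), with adjusted p from 5.94e-05 to 0.00416. In lymphomas against resting cells 4 were higher and 0 lower (4 with an unadjusted p under 0.05), beside 7.03% and 6.84% of all tested genes. They were Jdp2 (3.55 ± 1.10), Eif4ebp1 (2.25 ± 0.60), the factor Cebpb (1.47 ± 0.47) and the eIF2 kinase Eif2ak2 (1.23 ± 0.29). Against activated cells Cebpb was higher in lymphomas (1.78 ± 0.48), and Vldlr (-3.84 ± 0.36) and the oxidase Ero1l (-2.52 ± 0.41) were lower, as Trib3 was. That is 1 higher and 2 lower of 18, near the 7.04% and 8.28% of all tested genes. Vldlr averaged 5.42 ± 0.54 in lymphomas, 9.25 ± 0.09 in activated cells and 5.65 ± 0.66 in resting cells (SD, n = 9, 3 and 3). Its lymphoma and resting means thus lay near the floor of 5. Vldlr passed the filter on low signal through the activated arrays, the group in which it was high. Both of its called differences therefore rest on the signal of those 3 arrays, and their size is limited by the floor.

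The next list holds genes for the unfolded protein response of the endoplasmic reticulum. Of 17, 1 was higher and 2 lower in activated than in resting cells, Atf6 (1.26 ± 0.25) against the co-chaperone Dnajb9 (-1.42 ± 0.22) and Pdia4 (-1.07 ± 0.29), beside a background of 8.45% and 4.23%. By the adjusted p alone 2 were higher and 7 lower, where 15.4% and 15.5% of all genes were. Groups did not overlap for 3 upwards and 10 downwards, against 23.3% of all genes in each direction. Lymphomas had 4 higher and 0 lower than resting cells by limma (6 with an unadjusted p under 0.05; background 7.03% and 6.84%), with Sdf2l1 (1.90 ± 0.31), Creld2 (1.73 ± 0.45), Atf6 (1.48 ± 0.42) and the sensor Ern1 (1.44 ± 0.45). They had 4 higher and 0 lower than activated cells (9 with an unadjusted p under 0.05; background 7.04% and 8.28%), Creld2 (2.58 ± 0.46), Sdf2l1 (1.50 ± 0.32), Pdia6 (1.39 ± 0.22) and the chaperone Hspa5 (1.12 ± 0.20). In activated against resting cells, Creld2, Pdia6 and Hspa5 differed by -0.85, -0.79 and -0.80, and Sdf2l1 by 0.40.

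The 21 further folate, methyl and nucleotide genes had 0 higher and 3 lower in activated than in resting cells by limma (13 with an unadjusted p under 0.05; background 8.45% and 4.23%), the purine enzyme Gart (-1.34 ± 0.17), the mitochondrial folate carrier Slc25a32 (-1.12 ± 0.20) and Gcsh of the glycine cleavage system (-1.11 ± 0.12). Lymphomas had 3 higher and 0 lower than resting cells by limma (9 with an unadjusted p under 0.05), beside a background of 7.03% and 6.84%. These were Gcsh (1.62 ± 0.45), the purine enzyme Pfas (1.47 ± 0.40) and thymidylate synthase Tyms (1.15 ± 0.37). Tyms lay near the floor throughout, with means of 6.33 in lymphomas, 5.86 in activated and 5.18 in resting cells. It could not have passed the filter on low signal without the lymphomas, the group in which it was called higher. Its call therefore rests on the signal of the lymphomas. In lymphomas 5 were higher and 1 lower than in activated cells, beside 7.04% and 8.28% of all tested genes. The largest increases were in Gcsh (2.72 ± 0.45), the pyrimidine enzyme Cad (1.90 ± 0.58) and the purine enzymes Ppat (1.42 ± 0.47) and Atic (1.40 ± 0.34). Gcsh averaged 12.26 ± 0.83 in lymphomas, 9.53 ± 0.06 in activated cells and 10.64 ± 0.18 in resting cells (SD, n = 9, 3 and 3), so that it shared the order of Mthfd1 and Shmt2.

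Of 13 further tRNA synthetases, Vars was called higher in activated than in resting cells (1.16 ± 0.18), 1 of 13 and near the background of 8.45%. Another 4 were higher in lymphomas than in activated cells, Tars (1.67 ± 0.47), Kars (1.19 ± 0.40), Mars (1.09 ± 0.34) and Hars (1.00 ± 0.27), where the background was 7.04%. Against resting cells 0 passed both limits by limma (9 with an unadjusted p under 0.05). Of 20 further amino acid transporters, 3 were higher and 2 lower in activated than in resting cells, with Slc43a1 (3.04 ± 0.41), the aromatic amino acid carrier Slc16a10 (-2.10 ± 0.32), Slc43a3 (1.73 ± 0.28) and the lysosomal Slc38a9 (1.29 ± 0.18) among them, beside a background of 8.45% and 4.23%. Slc38a10 was higher in lymphomas than in resting (1.03 ± 0.15) and activated cells (1.19 ± 0.14), with a spread of 0.18 (SD, n = 9), and was the 1 called of 20 against resting cells, near the background of 7.03%. Against activated cells Slc16a10 was higher too (1.98 ± 0.64) and Slc43a1 lower (-2.80 ± 0.69), so that 2 were higher and 1 lower of 20, near the 7.04% and 8.28% of all tested genes. Of 12 further glutamine, proline and glutathione genes, 0 were called in any comparison by limma, with 4, 1 and 2 at an unadjusted p under 0.05 in activated against resting cells and in lymphomas against resting and against activated cells.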

How the data were processed

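The deposited values are linear array intensity that the authors obtained from MAS5 through the Affymetrix Expression Console (1.1 for the lymphomas, no version for the normal cells), per the submitters' processing notes. Of 45101 probe sets, the 34958 with 1 gene symbol were used, without the 64 controls (932 had several symbols and 9211 none). Symbols of 34741 were matched by gene identifier to GRCm38.p6. Signals were floored at 32 and log2 was taken. The probe set of highest mean stood for its gene, and a gene was tested where 3 or more arrays reached 100. limma 3.58.1 in R 4.3.3 (lmFit, eBayes with a trend) was fitted to the groups compared, with no block. On simulated data, with 100 genes changed by 2 and 100 by 4 on the log2 scale among 11902, it recovered 83 and 90 in activated against resting cells, 66 and 87 in lymphomas against resting, and 67 and 91 against activated cells.

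The members, lists and pairs were chosen with earlier results of these data known. For members called in at least 1 comparison and for Slc7a5, Asns and Atf4, the text gives each normal array and the lowest, median and highest lymphoma. At most 4 called genes with the largest changes are named per other list and comparison. The floor (16, 64, or 16 added in place of a floor), the filter (none, or 200) and the scaling (quantile or median centring) were varied. The probe sets were averaged, or those of the _s_at and _x_at classes, which may also bind other transcripts, were left out. Also varied were the fit (15 arrays together, untrended, with array weights, or with a replicate block), the fold limit (none) and the set of arrays (each left out in turn). Fits without lymphomas high in neutrophil or B cell markers, and correlations without each lymphoma, were added after seeing the data. The number of arrays limits the precision. The deleted p53 gene is not analysed here.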

Additional observations from a re-analysis of the deposited data

Results flagged for a closer look

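In 2 of the 31 tested members, 1 lymphoma stood apart from the other 8 by more than Dixon's test allows, which chance gives in about 1 of 20 groups. Got1 was at the floor of 5.0 in mPTCL 3, and the nearest other lymphoma was at 10.06. Ddit3 was at 11.18 in mPTCL 7, and the nearest other lymphoma was at 9.96.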

How the results depend on the processing

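Counts in the lymphoma contrasts changed with single arrays left out, while activated against resting cells kept 2 members higher and 1 lower without any 1 array. Against resting cells, 0 to 6 members were called higher when single arrays were left out: 0 without resting array 1 or 3, 1 without resting array 2, 5 without mPTCL 3 and 6 without mPTCL 4, against 3 with all arrays. Against activated cells 2 to 9 were called higher, with 3, 3 and 2 without activated array 1, 2 or 3. The main count of members against resting cells changed to 1 without the _s_at and _x_at probe sets. It changed to 5 with all 15 arrays in 1 fit, with the adjusted p alone or with array weights. In activated against resting cells, median centring gave 6 members lower, all 15 arrays in 1 fit gave 1 higher and 0 lower, and the adjusted p alone 7 and 7. Over all genes, calls higher and lower were 1006 and 504 in activated against resting cells, 743 and 1176 after median centring (median of all genes -0.26) and 855 and 643 after quantile normalization. In lymphomas against activated cells they were 838 and 986, then 1515 and 504 (median of all genes 0.27) and 1036 and 895, and 573 and 1125 with the mean of all probe sets. In lymphomas against resting cells they were 837 and 814, and 620 and 841 with that mean. Counts of all genes fell by more than 1.5 times when a normal array was left out of a lymphoma contrast, to 450 to 473 higher and 320 to 356 lower against resting cells and to 463 to 479 higher and 437 to 465 lower against activated cells. With all 15 arrays in 1 fit, activated against resting cells gave 295 and 102, and with the adjusted p alone 1830 and 1848. Array weights gave 1371 and 1344 against resting cells and 1303 and 1643 against activated cells. Without the 6 lymphomas high in neutrophil markers, 2 members were higher and 0 lower than in resting cells and 9 higher and 1 lower than in activated cells. Without the 2 high in B cell markers the counts were 3 and 0, and 6 and 1. Directions reversed for Trib3 in lymphomas against resting cells, whose difference ran from -0.26 to 0.34 with single arrays left out (-0.26 without resting array 3, and -0.0083, -0.0052 and -0.06 without mPTCL 3, 5 or 6), and for Asns against activated cells at -0.22 without the lymphomas high in neutrophil markers. None of these was called. Correlations reversed for Slc7a5 with Slc3a2 (-0.137 without the 2 farthest lymphomas), Asns with Trib3 (0.02 after quantile normalization, -0.451 to 0.128 with single lymphomas left out, the highest without mPTCL 3) and Atf3 with Ddit3 (-0.67 to 0.229, the highest without mPTCL 7), and the 1 pair past the adjustment by Pearson's r became 0 without the 2 farthest. The cause was not tested. Activated and resting samples share replicate numbers, but their deviations did not go together (correlations -0.011, 0.049 and -0.007), and with the number as a block 2 members were higher and 1 lower, as without pairing.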
